A study of Mus musculus with 4 samples.

Results

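The genes described here are 10 genes of the NRF2 antioxidant pathway, namely Nfe2l2, Keap1, Srxn1, Hmox1, Nqo1, Gclc, Gclm, Txnrd1, Prdx1 and Gsr. They were taken by symbol from 23783 mouse genes with a row in the deposited counts, and each was represented by its most abundant RefSeq transcript record. All 10 had a record, and 7 had enough counts to be tested. These genes, and the lists of other pathway genes used below, were chosen with earlier results of these data known. Shares and medians over all records set beside theirs are thus descriptive and test nothing about the set. RNA-seq libraries were made from BV-2, an immortalised line of mouse microglia, the resident macrophages of the brain. The control group had 2 libraries of untreated cells, and the LPS group had 2 libraries of cells given lipopolysaccharide, an outer-membrane glycolipid of bacteria that Toll-like receptor 4 recognises, at 10 ng/ml for 4 h. The control titles also give 4 h. All libraries come from this 1 cell line, and the labels do not say that replicates were separate cultures, so the p-values rest on a spread between libraries that may be technical.

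NRF2, encoded by Nfe2l2, is a transcription factor that switches on genes for the repair of oxidative damage. At rest the adaptor KEAP1 holds it in the cytoplasm and passes it to a CUL3 ubiquitin ligase for destruction, and oxidants or electrophiles that modify KEAP1 cysteines let NRF2 build up, pair with small MAF proteins and bind antioxidant response elements. In macrophages, itaconate made after LPS is known as one such electrophile. NRF2 protein is thus set largely after translation, and RNA counts do not measure it.

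Upstream sequences are shown for members that rose and for members that did not, because antioxidant response elements are the sites through which NRF2 acts. RefSeq windows on GRCm38.p6, the assembly behind mm10, matched 7 of the 10 members, all but Hmox1, Gclc and Gsr. The 250 bases before the annotated start were searched on both strands for the antioxidant response core TGACNNNGC, a second form of it, TGAGNNNGC and the AP-1 motif TGANTCA. The second form was added after the first had been searched. In the sequences below, read 5′ to 3′ along the gene's strand, capitals mark matches to either form of the core or to the AP-1 motif. Nfe2l2 (chr2:75704664-75704913, minus strand) and Srxn1 (chr2:152105274-152105523, plus strand) are shown as the members that rose, and Gclm (chr3:122245307-122245556, plus strand) and Prdx1 (chr4:116685349-116685598, plus strand) as members that did not pass the test.
Nfe2l2: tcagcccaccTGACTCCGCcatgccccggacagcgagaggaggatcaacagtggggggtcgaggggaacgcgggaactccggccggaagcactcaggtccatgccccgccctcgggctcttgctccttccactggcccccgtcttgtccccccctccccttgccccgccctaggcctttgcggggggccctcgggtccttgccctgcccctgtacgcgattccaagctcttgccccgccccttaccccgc
Srxn1: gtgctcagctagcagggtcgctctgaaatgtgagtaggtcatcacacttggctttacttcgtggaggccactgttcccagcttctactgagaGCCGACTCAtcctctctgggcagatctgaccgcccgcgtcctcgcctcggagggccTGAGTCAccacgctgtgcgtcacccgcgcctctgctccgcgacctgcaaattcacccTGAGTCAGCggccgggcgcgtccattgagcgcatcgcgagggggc
Gclm: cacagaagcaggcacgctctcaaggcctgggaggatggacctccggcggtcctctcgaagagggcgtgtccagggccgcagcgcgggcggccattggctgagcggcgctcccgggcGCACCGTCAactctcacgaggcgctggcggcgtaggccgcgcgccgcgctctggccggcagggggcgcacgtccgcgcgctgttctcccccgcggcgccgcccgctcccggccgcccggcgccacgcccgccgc
Prdx1: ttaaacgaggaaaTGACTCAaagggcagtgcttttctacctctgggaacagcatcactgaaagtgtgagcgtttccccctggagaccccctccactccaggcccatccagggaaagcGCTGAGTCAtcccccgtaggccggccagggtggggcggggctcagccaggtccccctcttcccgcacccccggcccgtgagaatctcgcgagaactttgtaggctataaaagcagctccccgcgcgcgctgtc

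With -1 as the base just before the start, Nfe2l2 had 1 core match, TGACTCCGC, from base -240 to -232. Bases after the start were looked for in GENCODE transcripts and found for each matched member except Nfe2l2. Its positions thus rest on the RefSeq start alone. Srxn1 had no match to the core in its first form and 2 to the second form, GCCGACTCA on the reverse strand from -158 to -150 and TGAGTCAGC from -45 to -37. The latter holds an AP-1 match within it, and a further AP-1 match, TGAGTCA, lay from -102 to -96. Gclm had 1 core match on the reverse strand, GCACCGTCA from -134 to -126. Positions beside gene names elsewhere are RefSeq gene spans over all records of a gene, and that of Gclm begins before the start used for this window. In Prdx1 the reverse-strand core match GCTGAGTCA from -133 to -125 overlapped an AP-1 match, and an AP-1 match stood alone from -237 to -231. Of the 3 annotated starts of Txnrd1, the second had a core match on the reverse strand from -92 to -84. The Keap1 and Nqo1 windows had no match to these letters, and bases farther upstream were not searched for any member. Over all 32851 windows of this length, 10.2% held TGACNNNGC, 14.4% TGAGNNNGC and 6.75% the AP-1 motif. Either form of the core stood in 23% of them. Core matches thus stood before members that rose and before members that did not pass the test, and a match is a description of letters, not of a bound site.

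**Figure D1:**
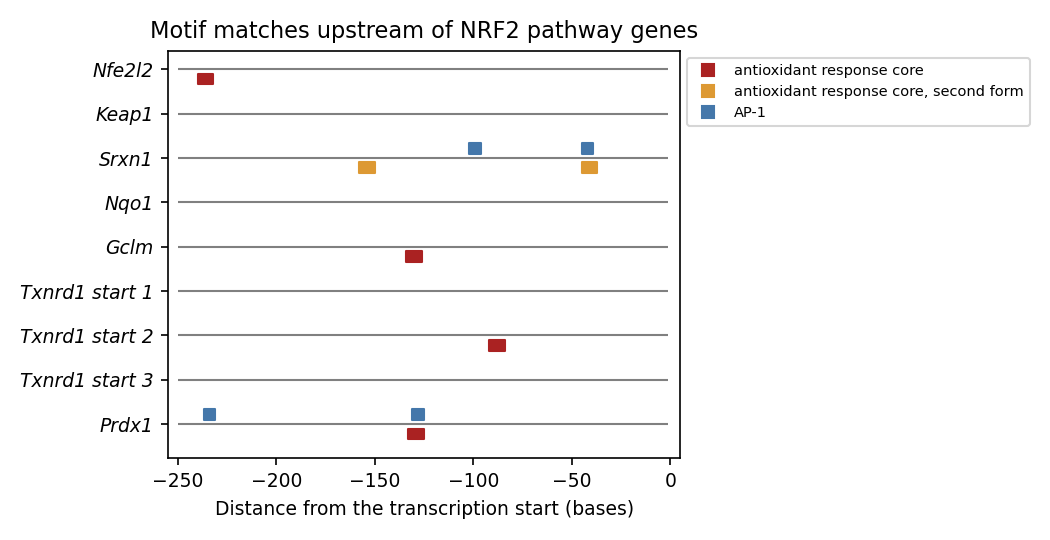
Matches to the antioxidant response core, its second form and the AP-1 motif (coloured boxes) along the 250 bases before each annotated start, with distance from the start in bases on the horizontal axis and 1 line per window. Core matches lie before Nfe2l2, Gclm, Prdx1 and the second start of Txnrd1, Srxn1 carries the second form and AP-1 matches, and Keap1 and Nqo1 carry none.

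Library totals ran from 2778686 to 3368693 counts, of which the 5 most abundant records took 53.4% to 67.5%, the highest share being in control replicate 1. Below, normalised counts are counts divided by the TMM-scaled library size and multiplied by its mean over libraries, so that 1 count is worth 0.844 to 1.41 normalised counts. Changes are log2 fold changes of LPS over control from edgeR's quasi-likelihood test, with its standard error (SE) and a Benjamini-Hochberg adjusted p over 6981 tested records, and a gene is said to have risen or fallen where the adjusted p is below 0.05. Of these records 3.82% rose and 1.70% fell. Both LPS libraries lay above both controls in 21.4% of records and below in 21.9%. Of 10 microglial and macrophage markers 5 were tested, among them Csf1r and Tyrobp. Their list summed to 2179 to 2592 normalised counts in controls and 2815 to 2829 after LPS, and Spi1, a myeloid transcription factor, was the 1 that rose, from a mean of 509 to 1125. Csf1r, Cd68 and Tyrobp had both LPS libraries below both controls without passing the test, and the 5 markers had a median change of -0.18 on the log2 scale. Their part in the results was not tested. Itgam was listed at 0 in every library, and Aif1, Ptprc, Cx3cr1 and Trem2 were below the count filter. Neuron, oligodendrocyte and fibroblast markers, 5 each, were at 0 in every library, and 5 astrocyte markers summed to at most 0.978 normalised counts in any library. In a bulk library, more RNA per cell and more cells with that RNA cannot be told apart.

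LPS raised 2 of the 7 tested NRF2 genes, Nfe2l2 and Srxn1, and lowered none, beside 3.82% and 1.70% of all tested records. Nfe2l2, the gene of NRF2 itself, rose 2.40-fold and Srxn1, whose product sulfiredoxin restores overoxidised peroxiredoxins, rose 1.95-fold. Hmox1, Gclm, Gclc, Prdx1 and Gsr did not pass the test. At an unadjusted p below 0.05 in edgeR, 3 were higher and 0 lower, beside 7.92% and 7.49% of all tested records, and DESeq2 and limma-voom each called 2 higher and 0 lower. The median log2 fold change over the 7 was 0.39, against -0.01 over all tested records. Every one of the 7 had at least 28 counts in each library, so none passed the count filter through 1 group alone.

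Nfe2l2 (NM_010902, chromosome 2, 75675513 to 75704663) stood at 218 and 186 normalised counts in the control libraries and at 490.0 and 476 after LPS. The LPS libraries lay close together and both stood far above the controls. The group means were 202 ± 22.9 and 483 ± 9.72 (SD, n = 2). The log2 fold change was 1.26, with an SE of 0.188, a 95% interval of 0.85 to 1.68 and an adjusted p of 0.00168 in edgeR's quasi-likelihood test. The change ranked 203 of the 267 rises by size, so most records that rose did so by more. By level, Nfe2l2 ranked 781 among tested records.

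Keap1, the gene of the adaptor that holds NRF2 back (chromosome 9, 21229730 to 21239332), was too low to test. Its 4 records were counted separately. NM_016679 had 4 and 10 raw counts in controls and 6 and 6 after LPS, and the other 3 records had 0 in every library. The rate ratio of LPS over control was 0.772 with an exact 95% interval of 0.326 to 1.799, which covers counting error only. That interval takes in both falls and rises, so the direction of any change was not settled at this depth.

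Across the table, genes with several records seldom reached the test. Of 19018 genes with 1 record 34.8% were tested, against 6.09% of 4765 genes with 2 or more. The sources used here do not say how reads shared by several records were counted, so a low Keap1 count cannot be read as low expression. Txnrd1, the gene of the selenoprotein thioredoxin reductase 1 (chromosome 10, 82833951 to 82897724), also has 4 records. Its most abundant, NM_001042514, had 1 and 2 raw counts in controls and 3 and 1 after LPS, a rate ratio of 1.20 with an exact 95% interval of 0.203 to 8.20. A second record, NM_001042523, had 1, 0, 3 and 2 counts in the same order of libraries, and the remaining records had 0.

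Nqo1, which encodes a quinone reductase and is a classical NRF2 target (NM_008706, chromosome 8, 107388225 to 107403205), had 0 counts in all 4 libraries. Unlike Keap1 and Txnrd1 it has a single record. A count of 0 over a group allows up to 1.58 normalised counts per library in controls and 1.43 after LPS, from a floor of 3 counts over the group. Any Nqo1 RNA below that level was not detectable in either group.

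**Figure D2:**
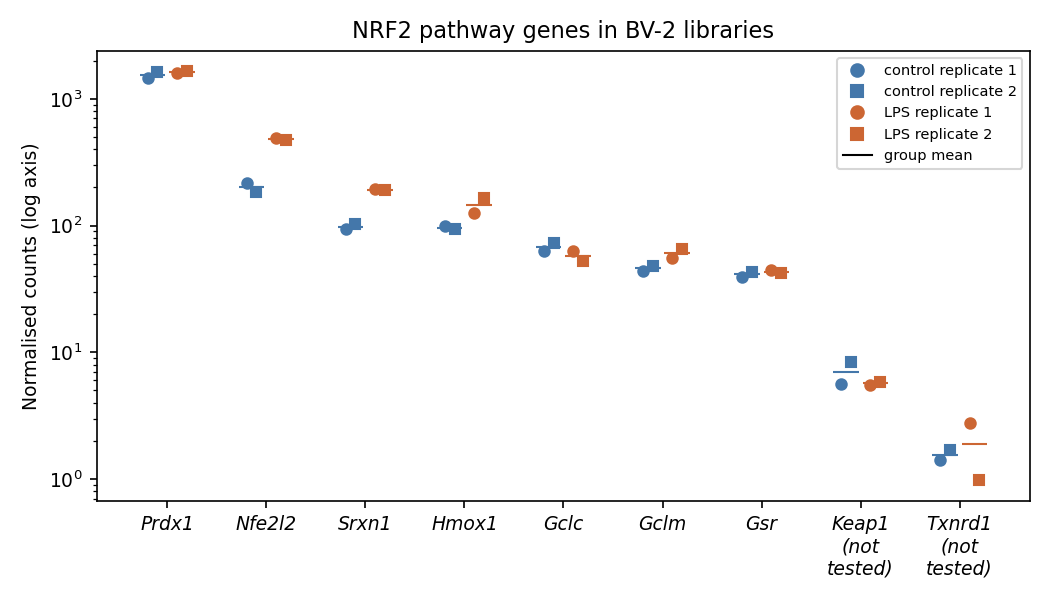
Normalised counts (log axis) of each NRF2 gene with counts, in control (blue) and LPS (orange) libraries, with circles for replicate 1, squares for replicate 2 and lines for group means. Nfe2l2 and Srxn1 show separated groups with a small spread after LPS, Prdx1 and Gsr overlap, and Keap1 and Txnrd1 lie below 9 normalised counts and were not tested. Nqo1, at 0 throughout, is left out.

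Srxn1 (NM_029688, chromosome 2, 152105524 to 152111376) had control levels of 94.2 and 102 normalised counts and levels of 194 and 191 after LPS. Both pairs were tight and the groups did not overlap. The means were 98.2 ± 5.57 and 192 ± 2.44 (SD, n = 2), and the log2 fold change was 0.97 with an SE of 0.207 (adjusted p 0.0181 in edgeR's test). The estimate held its size when a library was left out, 0.92 to 1.02, but the adjusted p was 0.301 without LPS replicate 1 and 0.279 without LPS replicate 2, where only the controls still give a spread.

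Prdx1, the peroxiredoxin that sulfiredoxin can repair (NM_011034, chromosome 4, 116685599 to 116700000), was the most abundant member and ranked 110 among tested records by level. It had control levels of 1464 and 1626 normalised counts and levels of 1598 and 1653 after LPS, so that the groups overlapped. The log2 fold change was 0.07 (SE 0.173, adjusted p 0.934 in edgeR's test), and the 95% interval of the fold ran from 0.808 to 1.37. That interval lies below a 2-fold rise. Per kilobase of record, Srxn1 stood at 0.0525 and 0.0512 of the Prdx1 level in the controls and at 0.0991 and 0.0941 after LPS.

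Hmox1 encodes haem oxygenase 1, which breaks down haem to biliverdin, iron and carbon monoxide (NM_010442, chromosome 8, 75093618 to 75100593). Its normalised counts were 98.5 and 93.7 in controls and 127 and 164 after LPS. Both LPS libraries lay above both controls, yet they differed from each other more than any other tested member's LPS pair did on the log2 scale. The means were 96.1 ± 3.38 and 145 ± 26.6 (SD, n = 2). The log2 fold change of 0.60 (SE 0.227) had an unadjusted p of 0.0228 and an adjusted p of 0.212 in edgeR's test, so the difference did not pass over all records. With a library left out, the log2 fold change ran from 0.41 to 0.79.

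The enzymes of glutathione synthesis and recycling gave no call. Glutathione is made by glutamate-cysteine ligase, with Gclc as its catalytic and Gclm as its modifier subunit, and glutathione reductase, encoded by Gsr, returns its oxidised form to the reduced one. Gclc (NM_010295, chromosome 9, 77754535 to 77794489) had control levels of 63.3 and 72.6 normalised counts and levels of 62.9 and 52.8 after LPS. The LPS values were below both controls, by a margin of under 1 count for the nearest pair. Gclm (NM_008129, chromosome 3, 122245487 to 122267215) had 43.6 and 48.1 in controls and 55.5 and 65.5 after LPS. Here both LPS libraries were the higher ones.

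The log2 fold change was -0.24 for Gclc (SE 0.253, adjusted p 0.807) and 0.39 for Gclm (SE 0.262, adjusted p 0.592) in edgeR's test. The 95% intervals of the fold ran from 0.576 to 1.25 and from 0.878 to 1.95. Per kilobase of record, the ratio of Gclm to Gclc was 0.422 and 0.406 in controls and 0.540 and 0.760 after LPS. The ratio was higher in both LPS libraries, and this difference between subunits was not tested. Gsr (NM_010344, chromosome 8, 33653238 to 33698162) had control levels of 39.4 and 43.0 normalised counts and levels of 44.4 and 42.1 after LPS. Its groups overlapped, and the log2 fold change was 0.06 (SE 0.273, adjusted p 0.971 in edgeR's test), with a 95% interval of the fold from 0.688 to 1.58.

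Counting non-overlap alone, 4 of the 7 tested genes had both LPS libraries above both controls (Nfe2l2, Srxn1, Hmox1 and Gclm) and 1 had both below (Gclc), beside 21.4% and 21.9% of all tested records. Levels per kilobase of record put the members in the order Prdx1, Nfe2l2, Hmox1, Srxn1, Gclc, Gsr and Gclm in both groups. In controls these levels were 674 ± 49.97, 81.6 ± 9.24, 61.2 ± 2.15, 34.9 ± 1.98, 19.8 ± 1.92, 15.4 ± 0.968 and 8.20 ± 0.570 normalised counts per kilobase (SD, n = 2). No neighbours in that order overlapped between the control libraries. After LPS the level of Nfe2l2 was 195 ± 3.93 and that of Srxn1 68.4 ± 0.868 normalised counts per kilobase. Gclc at 16.9 ± 2.08 and Gsr at 16.2 ± 0.615 then overlapped, and the other neighbours did not. Hmox1 stood at 0.712 and 0.796 of the Nfe2l2 level per kilobase in controls and at 0.408 and 0.544 after LPS.

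Of 4116 other records whose mean reached 50 normalised counts, those with the pattern over the 4 libraries most like that of Nfe2l2 were Odc1, Tor3a and Mapkapk2. Likeness was the Euclidean distance between centred log2 values with a pseudocount of 1, and it was 0.0795, 0.130 and 0.139 against a median of 1.30. Because Nfe2l2 rose in these same libraries, a rise in genes picked this way follows from the pick and is no separate result. Odc1, the ornithine decarboxylase of polyamine synthesis, had a log2 fold change of 1.33 (adjusted p 0.000994 in edgeR). Tor3a, a torsin family ATPase, had 1.14 (0.00349), and Mapkapk2, a kinase downstream of p38, had 1.24 (0.00261). Tor3a did not pass when either LPS library was left out, with adjusted p values of 0.0769 (replicate 1 removed) and 0.0697 (replicate 2 removed) in edgeR, nor did Mapkapk2 with LPS replicate 1 removed, at 0.0641.

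Other genes of the pathway were read from lists of regulators, glutathione, thioredoxin, quinone, haem and iron, and NADPH genes. Of 62 such genes 41 were tested. All 41 were among the 46 genes with 1 record, and none of the 16 with several records reached the test. Of the 41, 4 rose (Slc7a11, Maff, Glrx and Prdx5) and 1 fell (Slc40a1), beside 3.82% and 1.70% of all records. The median log2 fold change over the 41 was 0.01, against -0.01 over all tested records. In each list that gave 0 calls in a direction in edgeR, the count in that direction was also 0 at an unadjusted p below 0.05 and in DESeq2 and limma-voom. By list the median was 0.14 for regulators, 0.08 for glutathione, 0.03 for thioredoxin, -0.20 for quinone, haem and iron and 0.05 for NADPH genes. One tested gene, Akr1b8, passed the count filter only through the controls.

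Among 9 tested regulators, Maff rose and none fell, beside 3.82% and 1.70% of all tested records. Maff encodes a small MAF protein, the class of partner with which NRF2 binds DNA, and had control levels of 18.3 and 24.5 normalised counts and levels of 86.0 and 86.1 after LPS. The log2 fold change was 1.97 (SE 0.284, adjusted p 0.00132 in edgeR's test). Its relatives Mafg and Mafk, named after their values were seen, had log2 fold changes of 0.81 (adjusted p 0.151) and 0.28 (adjusted p 0.822) in the same test. Bach1, a repressor that competes at the same elements, had control levels of 74.5 and 135.9 normalised counts and levels of 90.6 and 75.3 after LPS, and did not pass (log2 fold change -0.37, adjusted p 0.673). The 2 most abundant regulators, Dpp3 and Rbx1, a subunit of the CUL3 ligase, had log2 fold changes of -0.06 and 0.14.

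In the glutathione list 2 of 11 tested genes rose and none fell, beside 3.82% and 1.70% of all tested records. Slc7a11, the cystine transporter that supplies cysteine for glutathione, had control levels of 12.7 and 32.1 normalised counts and levels of 313 and 376 after LPS. The log2 fold change of 3.84 (SE 0.322, adjusted p 2.08e-05 in edgeR's test) exceeded that of each of the 7 tested members, and it was 4.75 without control replicate 2. Glrx, a glutaredoxin that reverses protein glutathionylation, had 36.6 and 29.5 in controls and 65.6 and 84.1 after LPS, and its log2 fold change was 1.20 with an adjusted p of 0.0292 in the same test. The DESeq2 Wald test gave Glrx an adjusted p of 0.137, and edgeR gave 0.0549 without LPS replicate 1 and 0.428 without LPS replicate 2. Gpx1, a glutathione peroxidase, and Gsto1, an omega-class glutathione transferase, were the most abundant of the list, with log2 fold changes of -0.12 and 0.08.

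In the thioredoxin list 1 of 8 tested genes rose and none fell, beside 3.82% and 1.70% of all tested records. Prdx5, a peroxiredoxin found in mitochondria, peroxisomes and cytosol, had control levels of 333 and 237 normalised counts and levels of 599 and 585 after LPS. Its log2 fold change was 1.06 with an SE of 0.205 (adjusted p 0.00958 in edgeR's test). The adjusted p was 0.120 without LPS replicate 1 and also without LPS replicate 2. The list's most abundant genes, Prdx3 and Prdx2, had log2 fold changes of 0.03 and 0.02, near the 0.07 of Prdx1.

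Of 9 tested quinone, haem and iron genes, Slc40a1 fell and none rose, beside 1.70% and 3.82% of all tested records. Slc40a1 encodes ferroportin, the cellular iron exporter, and had control levels of 39.4 and 32.9 normalised counts and levels of 12.9 and 13.7 after LPS. Its log2 fold change was -1.42 with an SE of 0.345 (adjusted p 0.0354 in edgeR's test). The adjusted p was 0.269 in the DESeq2 Wald test, 0.314 without LPS replicate 1 and 0.247 without LPS replicate 2. Ftl1, the ferritin light chain, was the most abundant gene of all the lists and one with pseudogene copies that may share reads, with 8420 and 5522 normalised counts in controls and 7060 and 6403 after LPS. The control libraries bracketed the LPS libraries, and the log2 fold change was -0.05. Without control replicate 1 it was 0.29 with an adjusted p of 0.0354 in edgeR, and without control replicate 2 it was -0.33 with an adjusted p of 0.0136, so the direction turned with the control library left out. Blvra, a biliverdin reductase that acts on the product of haem oxygenase, had a log2 fold change of -0.20 and did not pass.

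NADPH pays for the reductase steps of Gsr and Txnrd1. None of 4 tested genes of its supply passed edgeR's test, beside 3.82% of all tested records that rose and 1.70% that fell. None passed DESeq2 or limma-voom, and 0 had an unadjusted p below 0.05 in edgeR. Tkt, the transketolase, had a mean of 915 ± 60.2 normalised counts in controls and of 887 ± 48.1 after LPS (SD, n = 2). Pgd, the 6-phosphogluconate dehydrogenase, had 714 ± 66.0 and 791 ± 9.59.

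**Figure D3:**
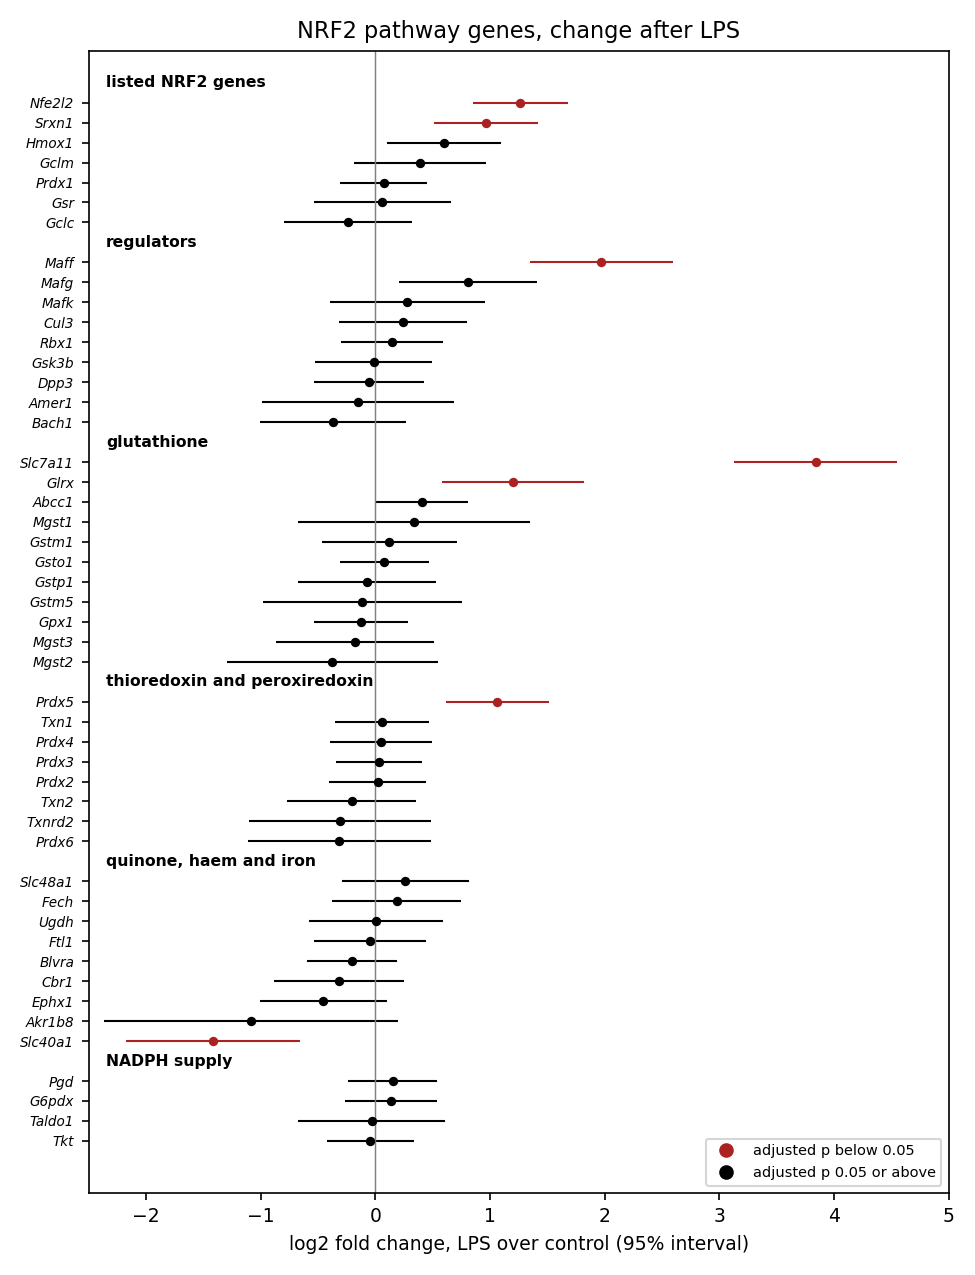
Log2 fold change of LPS over control with its 95% interval (horizontal axis) for the 7 tested NRF2 genes and 41 tested genes of the pathway lists, in red where the adjusted p is below 0.05. Slc7a11 at 3.84 and Maff at 1.97 lie farthest to the right, Nfe2l2 and Srxn1 are the red points in the top group, and Slc40a1 at -1.42 is the red point left of 0.

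**Figure D4:**
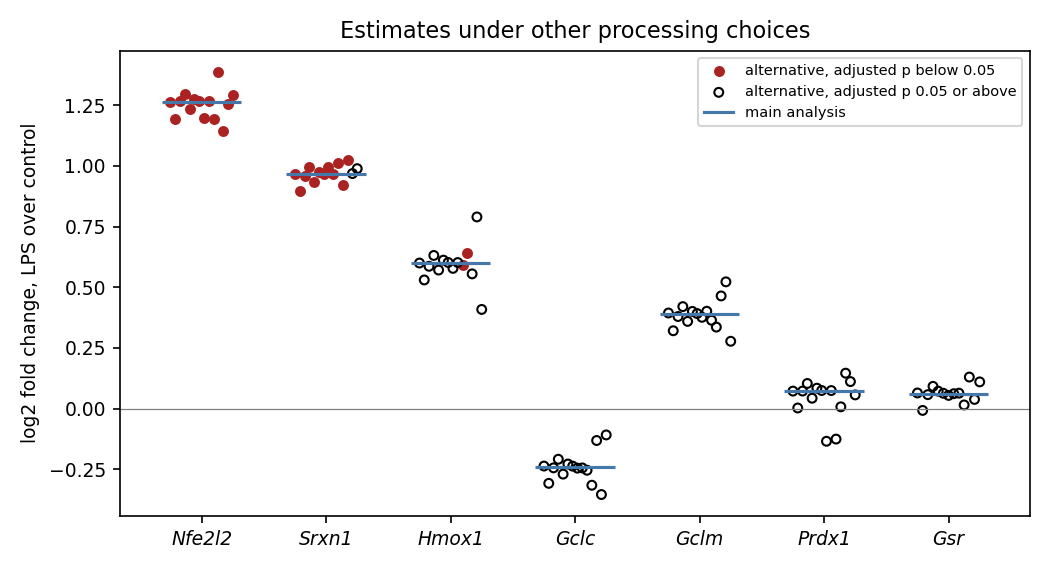
Log2 fold change of each tested NRF2 gene (vertical axis) under up to 14 other processing choices (13 for Gsr, which a stricter filter removes), with filled points where the adjusted p is below 0.05 and a line at the reported value. Nfe2l2 stays between 1.14 and 1.39 and past the threshold in each, Srxn1 loses the call in 2, and Hmox1 gains it in 2.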

How the data were processed

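The authors deposited whole-number counts per RefSeq transcript record for 2 control and 2 LPS libraries. The table is named as normalised, but column totals differ and low values show no rounding gaps, so it was treated as raw counts. Per the submitters' processing notes, the authors used HTSeq 0.6.1, TopHat2 2.0.10, Trimmomatic 0.33, CASAVA 1.8.2 and Cufflinks 2.2.1 with build mm10. What each did, and whether counting used strand, is not given in the sources used here. Directional random-primed libraries followed ribosomal RNA removal, per the labels' protocols.

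Groups came from the titles. Symbols and positions (1-based) came from RefSeq on GRCm38.p6, and lengths and GC content from GENCODE transcripts. Records passing filterByExpr (minimum count 10) were scaled by TMM and tested by edgeR 4.0.16 in R 4.3.3 without covariates, a procedure checked on simulated counts. Alternatives used DESeq2 1.42.0 and limma 3.58.1. No molecular identifiers were used as far as the labels say, so exact intervals and floors reflect counting error alone. Named by rule were all members, each list's genes past the threshold and its 2 most abundant, and the 3 genes most like Nfe2l2. Mafg, Mafk, Bach1 and Akr1b8 were named outside that rule. Members and lists were chosen with earlier results of these data known.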

Additional observations from a re-analysis of the deposited data

How the results depend on the processing

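Under 14 alternatives Nfe2l2 kept its direction and call, with a log2 fold change of 1.14 to 1.39 and an adjusted p of up to 0.0274. The number of members that rose ranged from 1 to 3 with a library left out and 0 fell in every alternative. With a library left out, the pathway lists gave 2 to 8 rises and 0 to 3 falls, and the count of falls was 0 with DESeq2 and 0 where a mean of 50 normalised counts was required. Over all records, 39 to 581 fell and 164 to 723 rose. Calls were 69.2% rises in the reported analysis and 55.4% to 80.9% with a library left out. Among these, the counts were lower without an LPS library and higher without a control library, and in each the spread rests on 1 pair.

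Genes with changes near 0 took the other sign under some settings, all without passing the threshold except Ftl1. Upper-quartile scaling gave -0.0078 for Gsr, -0.053 for Prdx2 and -0.036 for Prdx3. With the GC content and length trend removed, the values were -0.13 for Prdx1, -0.024 for Prdx2, -0.13 for Prdx3, 0.044 for Dpp3 and 0.036 for Tkt. The filter at a mean of 50 gave -0.0093 for Prdx2. With a library left out, the range was -0.34 to 0.29 for Dpp3, -0.33 to 0.29 for Ftl1, -0.28 to 0.046 for Gpx1, -0.021 to 0.18 for Gsto1, -0.17 to 0.22 for Prdx2 and -0.12 to 0.032 for Tkt, and Ftl1 passed at both ends of its range, lower without control replicate 2 and higher without control replicate 1. Across tested records, GC content had a Spearman correlation of -0.66 with the log2 ratio of control replicate 2 to replicate 1. It was -0.27 for the same ratio of the LPS libraries and -0.14 for the log2 fold change of LPS over control. The cause of the changes of sign was not tested.

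The labels share replicate numbers but do not say that a number marks a shared culture or day. Same-numbered libraries deviated together with a correlation of 0.24 across records. With the replicate number as a block, 401 records rose and 288 fell, against 267 and 119, and the members and pathway lists kept their counts of calls within 1.5 times. With the block and the GC and length trend removed, Hmox1 was called (log2 fold change 0.59, adjusted p 0.00571), and the values were -0.13 for Prdx1, -0.025 for Prdx2, -0.13 for Prdx3, 0.045 for Dpp3 and 0.039 for Tkt. With that trend removed and no block, 469 rose and 282 fell, so that 62.5% of calls were rises. Keap1, Txnrd1 and Nqo1 had too few counts to be tested in the reported analysis. With no filter on low counts 9 members were tested, all but Nqo1, and 2 of them rose. Without control replicate 1, 8 members were tested.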
